A study of Mus musculus with 5 samples.

Results

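The redox defence and glutathione genes described here are 37 listed genes of the enzymes and binding proteins that remove reactive oxygen species, make and recycle glutathione, or bind iron, zinc and copper, together with the regulators NRF2 and KEAP1. They were chosen by name, and a member was measured where a probe set carried its gene symbol and no other. By that rule, 33 of the 37 members were measured, among 18193 genes in all. Prdx1 was found only on 5 probe sets that carry a further symbol, and Prdx5, Prdx6 and G6pdx were not analysed here. The study asked how CXCR6+ CD4+ T cells of the inflamed colon differ from their CXCR6- neighbours. CXCR6+ (labelled CXCR6 Hi, n = 2 arrays) and CXCR6- (labelled CXCR6 Lo, n = 2 arrays) CD3+CD4+ T cells came from the lamina propria (LP) of the colon of mice with colitis. The colitis followed transfer of CD45RBhigh naive CD4+ T cells into Rag1-/- recipients, which have no T or B cells of their own, and all samples have BALB/c as the background strain. A further array held CD3+CD4+CD45Rb Hi naive T cells of healthy mice (n = 1 array), which its labels place in the spleen in 1 field and in the LP in another, while by the methods such cells came from BALB/c spleens. The methods give 1 age range, of adult mice, for all experiments, and the number of mice behind each sample is not given in them or in the labels. The labels call the LP arrays biological replicates, but nothing says how many animals they represent, so a p-value here reflects array-to-array spread that may be technical.

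Cells remove hydrogen peroxide with glutathione peroxidases, peroxiredoxins and catalase, and superoxide with superoxide dismutases. Glutathione and thioredoxin, which supply the electrons, are kept reduced by reductases that consume NADPH. NRF2 (encoded by Nfe2l2), held in check by KEAP1, binds the antioxidant response element in promoters of many of these genes, and activated T cells are known to depend on glutathione to support their growth.

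Each value is a deposited probe set signal, scaled so that the median of the array is 1, and differences were taken on log2 of this signal. The LP arrays were set against the naive array, as the mean of both subsets, with a linear model over all genes in limma. A gene passed the test at an adjusted p under 0.05. Signals of different genes depend on their probes and were not compared with each other.

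Several facts of the arrays touch every comparison with naive T cells. Only 1 array holds naive cells, so its spread had to be borrowed from the LP groups. Gapdh, read by probe sets at both ends of its transcript, had a 3' to 5' signal ratio of 2.81 to 6.96 across LP arrays against 1.51 for naive cells. Xist, expressed in female cells, had signals of 181 to 215 across LP arrays against 0.864 for naive cells, and the Y-linked Eif2s3y had 1.59 to 3.41 against 53.5. The added Dap control RNA, which is not from the mouse, had signals of 64.6 to 102 against 0.194. By the methods, the colon was treated with dithiothreitol, a reducing agent, and EDTA to remove epithelium before its cells were released with digestive enzymes, and spleens were disrupted mechanically. Tissue, sex, handling, labelling and cell state cannot be told apart in this comparison, and neither can a change in RNA per cell and a change in the cells present. Summed signals of T cell markers, with 7 of 8 listed genes measured, were 370 to 584 across LP arrays against 537 for naive cells. The markers were split, with 2 (Cd2 and Cd5) above the naive array on every LP array and 4 (Cd3d, Cd3e, Cd4 and Cd247) below. Cd3e, for example, had 23.2 to 25.1 against 86.1, and Cd5 had 64.7 to 107 against 39.1. Summed effector T cell markers, all 6 measured, were 590 to 1189 against 124.

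The promoters of a few members are shown because their letters match the elements that NRF2, the metal sensor MTF1 and glucose-sensing factors are known to bind. Of the measured members, 30 have a window of 250 bases before to 50 after the start in RefSeq (GRCm38.p6), with 43 windows in all. The core of the antioxidant response element, TGACNNNGC, was searched on both strands and was found in 7 of these members, Srxn1, Txnrd1, Gclm, Sod1, Nfe2l2, Pgd and Mt2. It was found in 12.39% of the 32851 promoter windows of all genes, and 7 of the 43 windows of measured members held it. The core of the metal response element, TGCGCNC or TGCACNC, was found in 11 members, in 12 of the 43 windows, against 25.7% of all windows. Mt2 held 4 matches and Mt1 held 3, and 7.114% of all windows held at least 2. A pair of CACGNG boxes with 5 bases between them, the form of the carbohydrate response element, was found in Txnip and in 0.0487% of all windows. Stretches upstream of the start follow, 5' to 3' on the gene's own strand, with matches to any of these motifs in capitals.
Mt1, chr8:94178949-94179088, plus strand: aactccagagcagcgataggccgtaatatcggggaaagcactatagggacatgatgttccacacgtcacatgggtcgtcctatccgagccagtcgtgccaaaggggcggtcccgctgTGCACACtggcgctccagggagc
Mt2, chr8:94172478-94172617, plus strand: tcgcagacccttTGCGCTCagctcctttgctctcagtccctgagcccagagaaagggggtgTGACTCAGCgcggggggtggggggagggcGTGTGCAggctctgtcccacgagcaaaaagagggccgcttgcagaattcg
Gclm, chr3:122245407-122245497, plus strand: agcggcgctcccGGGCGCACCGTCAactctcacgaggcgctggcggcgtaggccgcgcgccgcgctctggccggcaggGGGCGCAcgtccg
Txnrd1, chr10:82859096-82859146, plus strand: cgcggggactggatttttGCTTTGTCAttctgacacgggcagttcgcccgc
Nfe2l2, chr2:75704863-75704913, minus strand: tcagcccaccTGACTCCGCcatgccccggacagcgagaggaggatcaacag
Txnip, chr3:96557857-96557907, plus strand: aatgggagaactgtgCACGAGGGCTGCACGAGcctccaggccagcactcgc
In Gclm the capitals at -138 to -126 join a metal response core and an antioxidant response core that overlap. A match is a description of these letters and not a site of binding. Mt1 and Mt2 are metallothionein genes that are neighbours on chromosome 8. The stretch of Mt1 holds its metal response core at -23 to -17. That of Mt2 holds metal response cores at -128 to -122 and -50 to -44, and an antioxidant response core at -79 to -71. The other metal response cores of these genes lie outside the stretches shown.

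Most redox genes that differed past the test were lower in LP than in naive T cells. Of the 33 members, 3 were higher (Glrx3, Gclc and Gpx7), 12 were lower (Gsr, Nqo1, Prdx4, Mt2, Hmox1, Mt1, Keap1, Gpx1, Txnrd1, Prdx2, Prdx3 and Gclm), and 18 did not pass. Over all genes, 15.1% were higher and 18.8% were lower, beside 9.09% and 36.4% of the members. The median log2 difference was -0.72 over the members and -0.14 over all genes. All 4 LP arrays lay below the naive array for 20 members (60.6%) and above it for 9 members (27.3%), where 40.9% and 35% of all genes did so. These shares were not tested. With quantile normalization, which moved the median of all genes to -0.001, the split of the members was 6 higher and 9 lower, against 15.4% and 11.9% of all genes. With genes under the 40th percentile of signal left out it was 4 higher and 15 lower of 31 members, against 22.7% and 39.5% of the genes kept. The calls rest on few arrays. Without CXCR6+ replicate 1, or without CXCR6+ replicate 2, 1 member was higher and 2 were lower, and without CXCR6- replicate 1 or CXCR6- replicate 2 there were 0 of either.

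**Figure D1:**
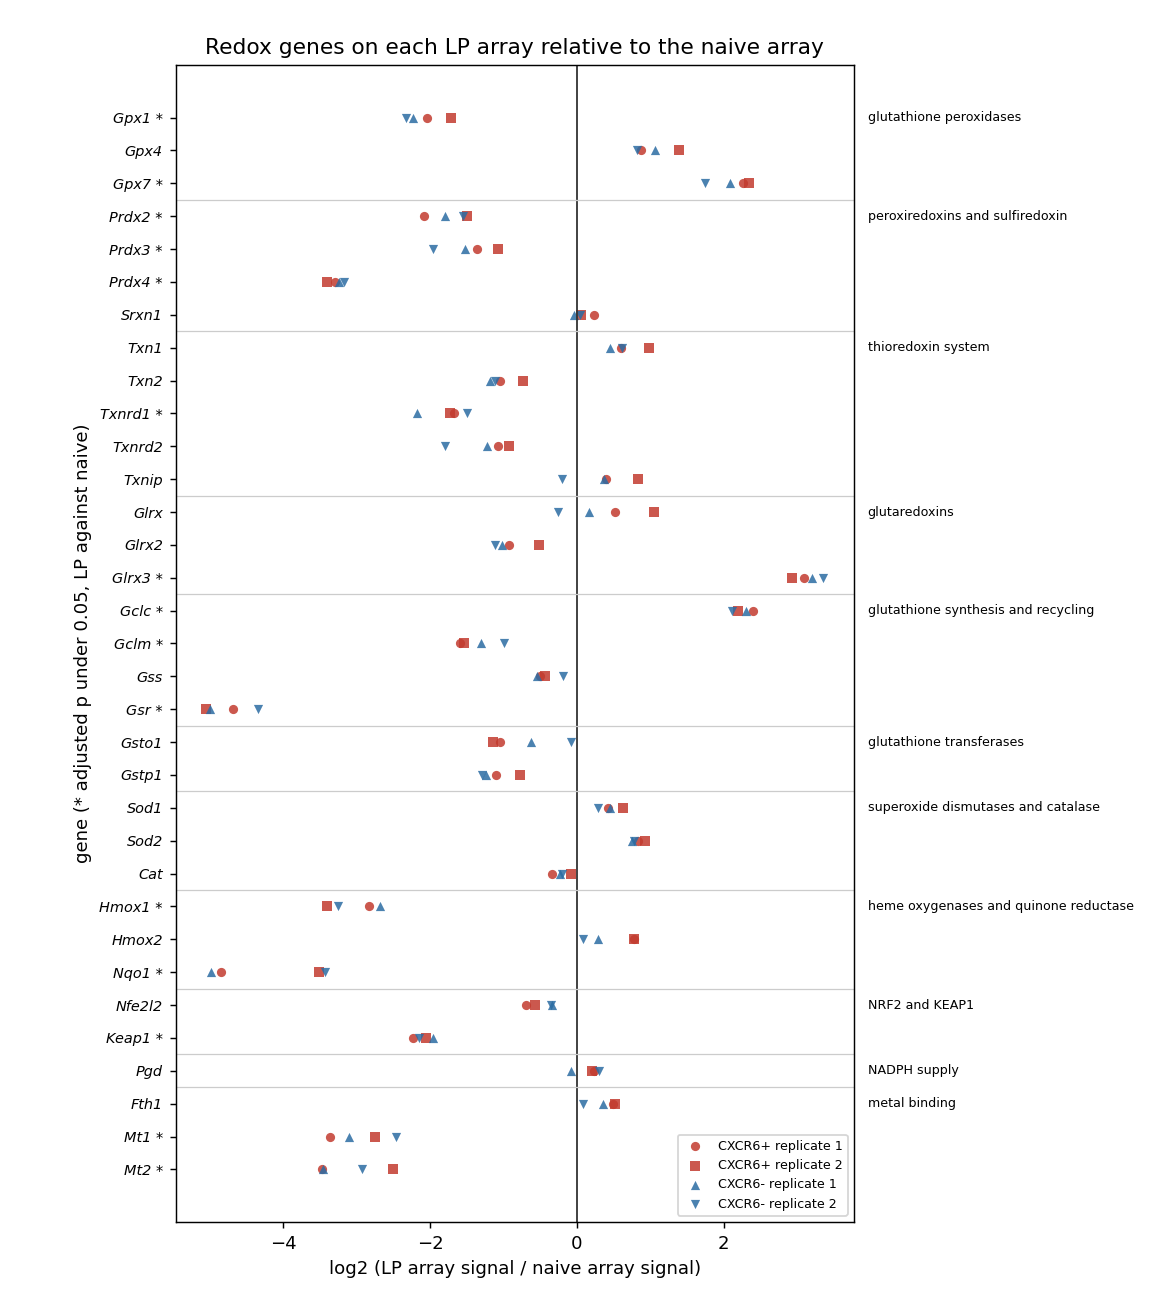
Log2 ratio of each LP array to the naive array (horizontal axis) for the 33 measured redox genes (vertical axis, grouped by role). Circles and squares are the CXCR6+ arrays, triangles the CXCR6- arrays, and an asterisk marks the 15 genes with an adjusted p under 0.05. All 4 LP arrays lie left of 0 for 20 genes and right of 0 for 9.

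Among the genes of glutathione itself, the catalytic subunit of the enzyme that starts its synthesis was higher in LP cells while the modifier subunit and the recycling enzyme were lower. Gclc, the catalytic subunit of glutamate-cysteine ligase, had signals of 20.5 and 17.8 for CXCR6+ cells, 19.2 and 16.8 for CXCR6- cells, and 3.89 for naive cells. The 4 LP arrays lay close together, and the log2 difference was 2.25 ± 0.26 (SE), a 4.77-fold higher signal (adjusted p = 0.0157). Gclm, the modifier subunit, had 3.81 to 5.75 across LP arrays against 11.5 for naive cells, a log2 difference of -1.36 ± 0.27 (SE, adjusted p = 0.0338). The subunits of this enzyme passed in opposite directions, but the Gclm call was lost with quantile normalization (log2 -0.56, adjusted p = 0.171) and with the methods' t-test (adjusted p = 0.0663). Gsr, the reductase that regenerates glutathione, had the largest difference of the members. Its signals were 2.36 and 1.84 for CXCR6+ cells, 1.90 and 2.99 for CXCR6- cells, and 60.8 for naive cells, 27.3-fold lower in LP cells (log2 -4.77 ± 0.39, SE, adjusted p = 0.0121). This rests on 1 probe set, since the other Gsr probe set had 1.59 to 2.02 across LP arrays against 1.26 for naive cells. For Gclc and Gclm the other probe set had the same direction, with log2 differences of 0.51 and -3.75. Gss, which adds the last amino acid of glutathione, did not pass (log2 -0.42 ± 0.28, SE, adjusted p = 0.310).

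Of the glutathione peroxidases, 1 was lower, 1 was higher and 1 did not pass. Gpx1, the cytosolic glutathione peroxidase, had signals of 22.9 and 28.5 for CXCR6+ cells, 20.1 and 18.7 for CXCR6- cells, and 93.9 for naive cells. It was 4.22-fold lower in LP cells (log2 -2.08 ± 0.27, SE, adjusted p = 0.0178). Gpx4, which reduces lipid peroxides in membranes, lay the other way on every LP array, with 64.4 to 95.1 against 36.3, and did not pass (log2 1.04 ± 0.33, SE, adjusted p = 0.0873). Gpx7, a peroxidase of the endoplasmic reticulum, passed as higher (log2 2.11 ± 0.28, SE, adjusted p = 0.0178). Its signals were 1.16 and 1.23 for CXCR6+ cells, 1.03 and 0.812 for CXCR6- cells, and 0.242 for naive cells. It was the only member with a mean signal under 1, the median of each array, and once signals under 1 were set to 1 the difference was 0.14 and did not pass (adjusted p = 0.189).

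All 3 measured peroxiredoxins were lower in LP cells. Prdx4, the peroxiredoxin of the endoplasmic reticulum, had signals of 4.92 and 4.56 for CXCR6+ cells, 5.11 and 5.37 for CXCR6- cells, and 48.3 for naive cells. It was 9.70-fold lower (log2 -3.28 ± 0.24, SE, adjusted p = 0.0119), and its other probe sets whose mean signal reached 1 gave log2 differences of -3.53 and -3.22. Prdx2, a cytosolic peroxiredoxin abundant in red blood cells, had 28.1 and 41.9 for CXCR6+ cells, 34.1 and 40.4 for CXCR6- cells, and 119 for naive cells (log2 -1.73 ± 0.35, SE, adjusted p = 0.0353). Prdx3, the mitochondrial peroxiredoxin, had 9.96 to 18.4 across LP arrays against 38.7 for naive cells (log2 -1.48 ± 0.32, SE, adjusted p = 0.0401). Prdx2 and Prdx3 lost their calls with the floor at a signal of 1 (adjusted p = 0.0763 and 0.0739). Prdx3 lost its call also with quantile normalization (adjusted p = 0.0802) and with the methods' t-test (adjusted p = 0.0960). Srxn1, sulfiredoxin, which repairs over-oxidized peroxiredoxins, lay at 2.60 to 3.13 across LP arrays against 2.66 for naive cells, and did not pass (log2 0.08 ± 0.25, SE, adjusted p = 0.832). Its probe set is of the _s_at type, which can match more than 1 transcript. Without _s_at and _x_at probe sets Srxn1 passed as higher (log2 2.52, adjusted p = 0.0454), on a probe set with a mean signal under 1.

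In the thioredoxin system, the cytosolic reductase was lower and the other genes did not pass in the main fit. Txnrd1, cytosolic thioredoxin reductase, had 9.07 to 14.4 across LP arrays against 40.9 for naive cells (log2 -1.77 ± 0.36, SE, adjusted p = 0.0364). The Txnrd1 call was lost when probe sets were averaged (adjusted p = 0.103), quantile normalization (adjusted p = 0.0737) and the floor (adjusted p = 0.0823). Its mitochondrial counterpart Txnrd2 had 1.39 to 2.54 against 4.84 (adjusted p = 0.0627), and mitochondrial thioredoxin, Txn2, had 9.95 to 13.6 against 22.6 (adjusted p = 0.0593). Cytosolic thioredoxin, Txn1, lay above the naive array on each LP array, at 194 to 281 against 142 (log2 0.66 ± 0.29, SE, adjusted p = 0.161). Txnip, which binds and inhibits thioredoxin, had 159 and 214 for CXCR6+ cells, 156 and 105 for CXCR6- cells, and 120 for naive cells (log2 0.35 ± 0.38, SE, adjusted p = 0.509). The naive array lay within the range of the LP arrays, and the other Txnip probe set had a difference of the opposite sign. With quantile normalization the difference turned for Txn1 (-0.17) and Txnip (-0.40). Of the glutaredoxins, a glutathione-dependent family, Glrx3 passed as higher. Its signals were 3.48 and 3.11 for CXCR6+ cells, 3.76 and 4.18 for CXCR6- cells, and 0.407 for naive cells, 8.87-fold higher in LP cells (log2 3.15 ± 0.25, SE, adjusted p = 0.0121). A further 4 probe sets of Glrx3 carry another symbol as well and were not used, so this call rests on 1 probe set with a naive signal under the array median. Glrx (log2 0.37 ± 0.36, SE, adjusted p = 0.471) and mitochondrial Glrx2 (log2 -0.89 ± 0.29, SE, adjusted p = 0.0914) did not pass.

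**Figure D2:**
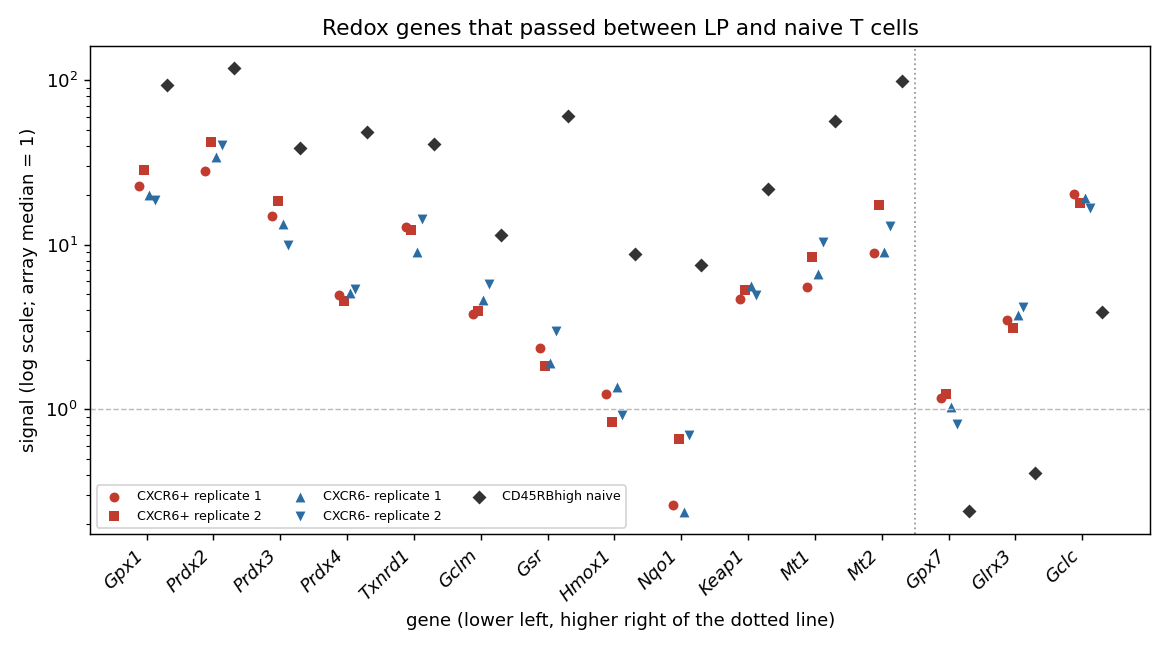
Signal on each array (log scale, array median = 1) of the 15 redox genes past the test for LP against naive T cells, with the 12 lower genes left of the dotted line and the 3 higher genes right of it. Diamonds are the single naive array. No LP array reaches the naive signal of any gene left of the line, where Gsr has the widest gap (1.84 to 2.99 against 60.8).

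The inducible enzymes of heme and quinone metabolism were lower in LP cells. Hmox1, inducible heme oxygenase, had signals of 1.23 and 0.833 for CXCR6+ cells, 1.37 and 0.921 for CXCR6- cells, and 8.79 for naive cells (8.24-fold lower, log2 -3.04 ± 0.41, SE, adjusted p = 0.0183). Nqo1, a quinone reductase, had 0.261 and 0.662 for CXCR6+ cells, 0.238 and 0.697 for CXCR6- cells, and 7.54 for naive cells (log2 -4.20 ± 0.88, SE, adjusted p = 0.0379). All LP signals of Nqo1 were under the array median, and its standard error was the largest of the members. Its call was lost with quantile normalization (adjusted p = 0.0612) and with the methods' t-test (adjusted p = 0.0662). Hmox2, the constitutive heme oxygenase, had 20.3 to 32.8 against 19.0 and did not pass (log2 0.49 ± 0.25, SE, adjusted p = 0.208).

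Of NRF2 and its inhibitor KEAP1, the gene of the inhibitor was lower in LP cells and that of NRF2 did not pass. Keap1 had signals of 4.67 and 5.27 for CXCR6+ cells, 5.62 and 4.96 for CXCR6- cells, and 22.0 for naive cells, 4.29-fold lower in LP cells (log2 -2.10 ± 0.26, SE, adjusted p = 0.0164). The other Keap1 probe set, with a mean signal under 1, lay the other way (log2 0.37), and with the mean of both the difference was -0.86 and did not pass (adjusted p = 0.122). Nfe2l2 had 23.7 and 25.9 for CXCR6+ cells, 30.3 and 30.1 for CXCR6- cells, and 38.4 for naive cells, and did not pass (log2 -0.49 ± 0.24, SE, adjusted p = 0.196). Each Nfe2l2 signal of an LP array lay below the naive one, but the other Nfe2l2 probe set lay the other way, at 2.95 to 3.11 against 1.57. Of 12 members known from textbooks as NRF2 targets, 10 were measured, and 1 was higher (Gclc) and 5 were lower (Nqo1, Hmox1, Gclm, Txnrd1 and Gsr). Over all genes the shares were 15.1% higher and 18.8% lower. Among the other 23 members, 2 were higher and 7 were lower, with a median log2 difference of -0.72 beside -0.64 for the NRF2 targets. In the 5 mitochondrial members (Prdx3, Txn2, Txnrd2, Sod2 and Glrx2) the median was -1.02, with 0 higher and 1 lower.

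The metallothioneins Mt1 and Mt2, small proteins that bind zinc and copper, both passed as lower. Mt1 had signals of 5.50 and 8.44 for CXCR6+ cells, 6.60 and 10.3 for CXCR6- cells, and 56.8 for naive cells (7.58-fold lower, log2 -2.92 ± 0.44, SE, adjusted p = 0.0215). Mt2 had 8.94 and 17.4 for CXCR6+ cells, 9.03 and 13.0 for CXCR6- cells, and 98.9 for naive cells (8.50-fold lower, log2 -3.09 ± 0.51, SE, adjusted p = 0.0249). The Mt1 probe set is of the _s_at type, which can match more than 1 transcript. Without probe sets of this type the Mt1 difference was -1.38 and did not pass (adjusted p = 0.245), nor did it when probe sets were averaged (log2 -2.15, adjusted p = 0.0690). With the floor at a signal of 1, neither Mt1 (adjusted p = 0.0594) nor Mt2 (adjusted p = 0.0745) passed. In both subsets the array numbered 2 was the higher for both genes, and the subsets overlapped. Mtf1, the metal sensor whose element is marked in the promoters above, was no member and was lower in LP cells as well, at 1.33 to 2.25 against 26.5 (log2 -4.06 ± 0.39, SE, adjusted p = 0.0135). Fth1, the heavy chain of ferritin, which stores iron, had 199 to 267 against 187 and did not pass (log2 0.36 ± 0.26, SE, adjusted p = 0.336). Its difference turned with quantile normalization (-0.60).

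The superoxide dismutases, catalase, the glutathione transferases and Pgd did not pass. Sod2, the mitochondrial superoxide dismutase, had 58.8 to 66.2 across LP arrays against 34.8 for naive cells (log2 0.83 ± 0.24, SE, adjusted p = 0.0709), and a further Sod2 probe set had 9.71 to 11.8 against 36.4. Sod1, the cytosolic enzyme, had 214 to 273 against 175 (log2 0.45 ± 0.26, SE, adjusted p = 0.252) and turned with quantile normalization (-0.47). Of its other probe sets, the brightest had 157 to 205 against 163 (log2 0.08). Of the dimmer ones, 1 had 11.9 to 31.4 against 0.743 and another had 2.28 to 4.38 against 10.9. Cat, the catalase of peroxisomes, had 47.1 to 56.3 against 59.6 (log2 -0.21 ± 0.26, SE, adjusted p = 0.561). None of these genes passed in the main fit. In several alternatives Sod2 passed as higher, such as quantile normalization (adjusted p = 0.0329), the floor at a signal of 1 (adjusted p = 0.0163) and the methods' t-test (adjusted p = 0.0225). Gstp1 and Gsto1, which join glutathione to other molecules or reduce them with it, had log2 differences of -1.10 ± 0.27 (SE, adjusted p = 0.0525) and -0.72 ± 0.33 (SE, adjusted p = 0.170). Pgd, an enzyme of the pentose phosphate pathway that yields NADPH, did not pass either (log2 0.16 ± 0.28, SE, adjusted p = 0.681), and its 3 other probe sets lay on the opposite side of 0.

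Several members are also abundant in cells other than T cells, whose markers differed between the arrays. Summed erythroid markers, with 5 of 12 listed genes measured, were 8.69 to 17.2 across LP arrays against 97.7 for naive cells, but most of the naive sum was Car1 (7.80 to 16.0 against 85.2), which the epithelial list holds as well. Without Car1 the erythroid sum was 0.778 to 1.12 against 12.6, of which the red cell membrane transporter Slc4a1 had 0.237 to 0.377 against 10.6. The hemoglobin gene Hba-a1 was at 0.016 on the naive array. The erythroid sum was higher on the naive array, as were Prdx2 and Hmox1. Among the LP arrays this sum was higher on the array numbered 2 of each subset, where Prdx2 was higher and Hmox1 was lower. Summed granulocyte markers, with 8 of 9 genes measured, were 17.7 to 31.5 against 220, of which S100a9 had 3.12 to 5.80 against 114. Summed B cell and plasma cell markers, with 8 of 9 measured, were 7.48 to 127 against 350, beside the lower signal of Prdx4, a gene known to be abundant in antibody-secreting cells. Of these markers, 7 lay below the naive array on every LP array and 1 (Pax5) above, at 0.673 to 1.22 against 0.025. On the LP arrays the sum was 80.3 and 7.48 in CXCR6+ cells and 127 and 12.7 in CXCR6- cells. On the arrays numbered 1 most of it was the antibody chain gene Jchain. Prdx4 lay between 4.56 and 5.37. Spic, a marker of the splenic macrophages that take up red cells and express Hmox1, had 0.175 to 0.376 against 7.23, while summed macrophage and monocyte markers, all 14 measured, were 310 to 435 against 187. These 14 markers were split, with 6 above the naive array on every LP array and 7 below, and a median log2 difference of -0.26. Summed fibroblast and smooth muscle markers, all 10 measured, were 101 to 164 against 10.1. Summed epithelial markers, all 15 measured, were 51.9 to 116 against 108, and without Car1 they were 43.7 to 99.6 against 22.5. Of the 15, 11 lay above the naive array on every LP array and 1 below, with a median log2 difference of 2.02. Jchain, an antibody chain of plasma cells, read 73.3 and 2.21 for CXCR6+ cells and 121 and 6.38 for CXCR6- cells, although the recipients make no B cells. The part of these cells in the results was not tested.

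The probe sets of a gene did not always move the same way. Among the 15 members that passed, 4 had other probe sets whose mean signal reached 1, 5 probe sets in all, of which 4 had the same direction and 1, that of Gsr, the opposite. Among the 18 members that did not pass, 14 of 24 such probe sets had the same direction and 10 the opposite, in 8 members. The differences of Glrx, Txnip, Nfe2l2 and Pgd turned when the mean of all probe sets was taken.

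**Figure D3:**
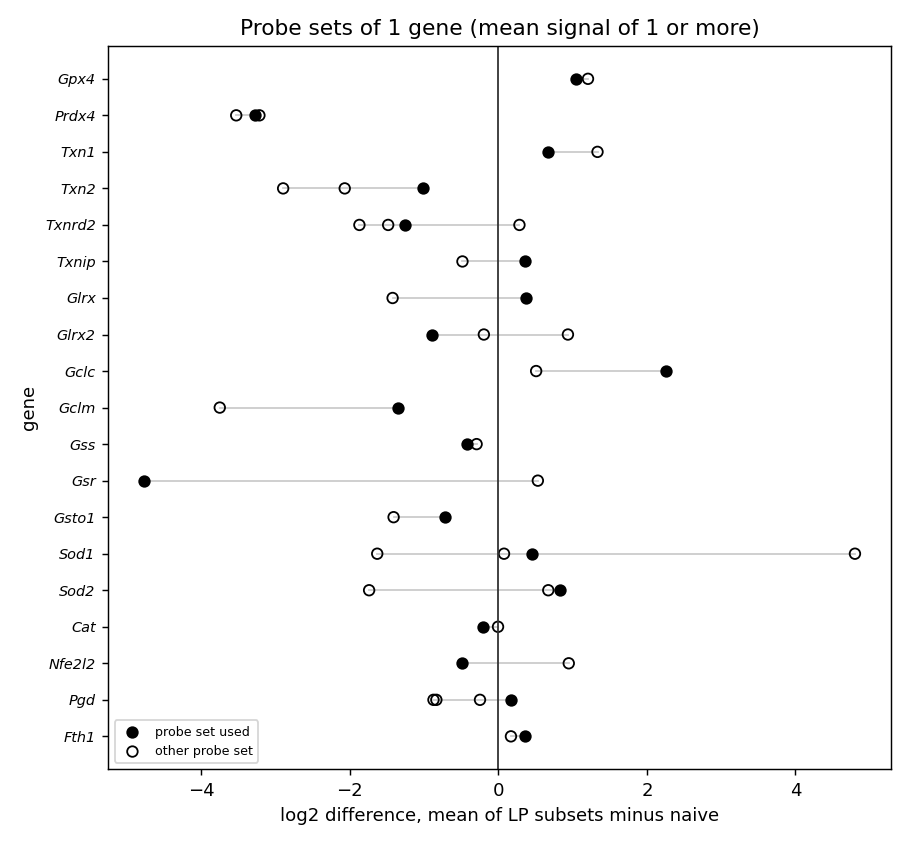
Log2 difference between the mean of the LP subsets and the naive array (horizontal axis) for each probe set whose mean signal reached 1, for the 19 members with more than 1 such probe set (vertical axis). Filled points are the probe sets used and open points the others. The 3 bright Prdx4 probe sets lie together (-3.53 to -3.22), while those of Gsr lie on opposite sides of 0 (-4.77 and 0.53).

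Each subset was also set against the same naive array, so these comparisons share it and are not independent. Against naive T cells, CXCR6+ cells had 3 members higher and 9 lower, where 13.2% and 15.3% of all genes passed. CXCR6- cells had 3 higher and 11 lower, where 12.8% and 16.7% passed. In both comparisons the counts were 0 when any LP array was left out and 0 with the methods' t-test after adjustment, so single calls are given as values. Glrx3, Gclc and Gpx7 were the higher members in both. Prdx3, Txnrd1 and Nqo1 passed in CXCR6- cells, with adjusted p = 0.0768, 0.0524 and 0.0507 in CXCR6+ cells. Gclm passed in CXCR6+ cells, with adjusted p = 0.0604 in CXCR6- cells. A difference between the subsets is not shown by these calls, and it was tested directly.

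Between CXCR6+ and CXCR6- T cells, no redox gene passed. The count was 0 of 33 members and 0% of all genes with limma at an adjusted p under 0.05. At an unadjusted p under 0.05 with limma there were 0 members and 1191 of 18193 genes. The methods' t-test gave 2 members at that unadjusted threshold and 0 after adjustment. Its share over all genes at the unadjusted threshold is not given here, so this count is not read as a result. The largest differences were those of Glrx, Gsto1 and Hmox2. Glrx had 23.3 and 33.6 for CXCR6+ cells and 18.2 and 13.6 for CXCR6- cells, a log2 difference of 0.83 with a 95% interval of -0.11 to 1.76. Gsto1, a transferase that also reduces dehydroascorbate, had 10.3 and 9.58 against 13.8 and 20.2 (-0.75, 95% interval -1.59 to 0.09). The other Gsto1 probe set had 4.70 and 5.75 against 3.93 and 6.17, with arrays that overlap and a difference of the opposite sign (0.08). Hmox2 had 32.8 and 32.7 against 23.3 and 20.3 (0.59, 95% interval -0.04 to 1.23). On the probe sets used, the arrays of the subsets do not overlap for these 3 genes, and each interval includes 0.

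Arrays of the subsets did not overlap for 18 members. Both CXCR6+ arrays lay above both CXCR6- arrays for 13 members (39.4%), against 25.1% of all genes, and below them for 5 members (15.2%), against 14.3%. The higher group held Gpx1, Gpx7, Prdx3, Srxn1, Txn2, Txnrd2, Txnip, Glrx, Glrx2, Gstp1, Sod2, Hmox2 and Fth1. The lower group held Prdx4, Glrx3, Gclm, Gsto1 and Nfe2l2. These groups rest on the probe set used for each gene, and the 2 other bright Prdx4 probe sets had differences of the opposite sign (0.045 and 0.15). All 5 mitochondrial members were in the higher group, with a median log2 difference of 0.35 beside 0.08 over all genes. Summed T cell markers moved the same way, at 521 and 584 on the CXCR6+ arrays and 437 and 370 on the others, and their part in these values was not tested. The median absolute log2 difference of the members was 0.21 between the CXCR6+ arrays, 0.25 between the CXCR6- arrays and 0.26 between the means of the subsets, beside 0.37, 0.34 and 0.32 over all genes. The value between means of 2 arrays varies less than that between single arrays, so these medians are not on the same scale. Intervals such as that of Cat (-0.66 to 0.66) leave room for differences of either sign.

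**Figure D4:**
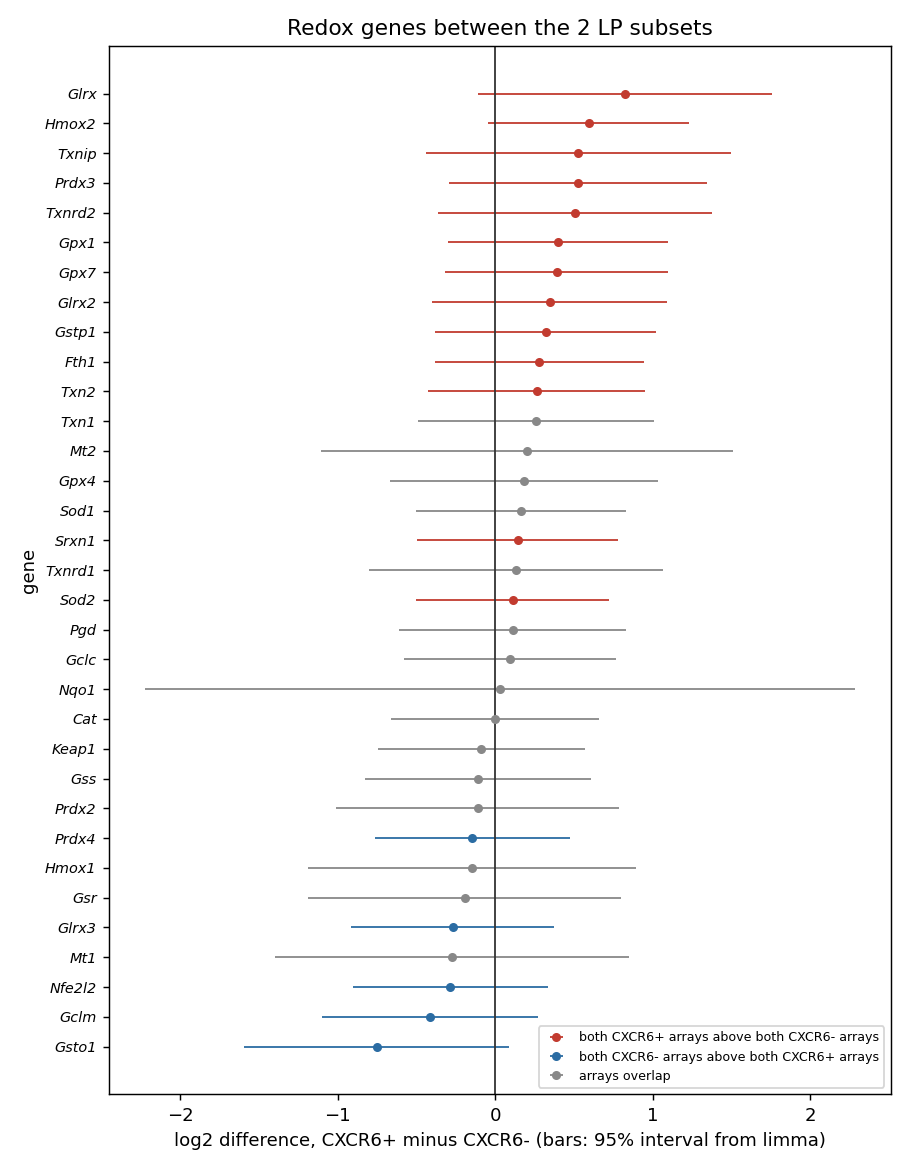
Log2 difference between CXCR6+ and CXCR6- T cells (horizontal axis) for the 33 measured redox genes (vertical axis, ordered by the difference), with 95% intervals from limma as bars. Red marks the 13 genes with both CXCR6+ arrays above both CXCR6- arrays, blue the 5 genes with the reverse, and grey those that overlap. Every interval includes 0.

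Of 107 further genes of the same pathways, 102 were measured, and 11 were higher and 33 were lower in LP than in naive T cells, beside the 15.1% and 18.8% of all genes. With quantile normalization 11 were higher and 13 were lower, against 15.4% and 11.9% of all genes. With the replicate block 6 were higher and 15 were lower. Both counts fell when any LP array was left out. Among peroxidases, reductases and repair enzymes, 2 of 19 were higher and 6 were lower. Blvrb, biliverdin reductase B, had 0.735 to 1.91 across LP arrays against 57.4 for naive cells (log2 -5.33 ± 0.58, SE, adjusted p = 0.0148). Gpx2, a glutathione peroxidase of the gut epithelium, was higher (log2 3.74 ± 0.55, SE, adjusted p = 0.0209). Of the genes for cystine uptake and glutathione turnover, 2 of 12 were higher and 3 were lower. The cystine transporter subunit Slc7a11 had 0.979 to 1.46 against 0.293 (log2 2.06 ± 0.35, SE, adjusted p = 0.0262). Cth, which makes cysteine from cystathionine, passed as higher at signals of 0.468 to 0.664 against 0.019, all under the array median. Glutathione transferases beyond the members had 2 of 16 higher and 5 lower, other sources of NADPH 1 of 12 higher and 4 lower, and other regulators 2 of 16 higher and 5 lower. Genes of iron and other metal handling had 0 of 9 higher and 4 lower, among them Slc40a1, the iron exporter ferroportin, at 1.09 to 2.87 against 25.0 (log2 -3.89 ± 0.73, SE, adjusted p = 0.0314). Genes of selenoprotein synthesis, listed together with the selenoproteins Selenow, Selenok, Selenos and Selenof, had 1 of 11 higher and 6 lower. Gpx1, Gpx4 and the thioredoxin reductases depend on such synthesis. Sephs2, which makes the selenium donor, had 15.3 to 23.5 against 111 (log2 -2.62 ± 0.27, SE, adjusted p = 0.0143). Of the NADPH oxidase and other sources of reactive oxygen, 1 of 7 was higher, Ncf1, at 10.9 to 35.7 against 3.60.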

How the data were processed

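Total RNA of the sorted T cells was hybridized to Affymetrix whole-genome mouse arrays. The intensity values deposited by the authors are linear signals, made with GeneSpring per the methods and with RMA per the submitters' notes, and each array has a median of 1. How background was corrected or probe sets were filtered is not given in the sources used here. Different RNA kits are named by the methods and by the labels. Of 45101 probe sets, 34945 carry 1 gene symbol and 932 several, and 34741 of the former matched RefSeq by Entrez ID. Each of 18193 genes was read from its probe set of highest mean signal over the 5 arrays. Signals were log2 transformed, with the 2 values of 0 set to 0.001. Of the columns, 0 could not be matched to a sample.

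Groups were compared in R 4.3.3 by a two-sided moderated test of limma 3.58.1, adjusted over all genes by Benjamini-Hochberg, with 2 residual and 1.678 prior degrees of freedom, and the fit was tested on simulated data. The number of arrays limits the precision. The members and lists were chosen with earlier results of these data known. All measured members were named, with per-array values for up to 8 called genes in each direction and for Nfe2l2, Keap1, Txnip, Prdx2, Hmox1, Mt1 and Mt2, and up to 3 genes with the largest difference of each further list. Between the subsets, the 3 members with the largest difference were chosen after their values were seen. Alternatives were the mean of probe sets, no _s_at or _x_at probe sets, a filter at the 40th percentile, quantile normalization, log2 of signal plus 1, a floor at a signal of 1, a robust fit with a variance trend, omission of each LP array in turn, a replicate block and the methods' t-test. Figures were drawn with matplotlib 3.10.9 in Python 3.11.15.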

Additional observations from a re-analysis of the deposited data

How the results depend on the processing

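For LP against naive T cells, members higher numbered 6 with quantile normalization, with signal plus 1 and with a variance trend, and 0 to 1 when an LP array was left out (0 without either CXCR6- replicate), and members lower numbered 0 to 2 when an LP array was left out. For CXCR6+ against naive T cells, members higher numbered 5 with the filter, 6 with quantile normalization, and 7 with signal plus 1 and with a variance trend, and members lower numbered 15 with the filter and 17 with signal plus 1 and with a variance trend. For CXCR6- against naive T cells, members higher numbered 5 with signal plus 1 and with a variance trend, and members lower numbered 6 with a floor at a signal of 1. In both subset comparisons with naive T cells, higher and lower members numbered 0 with the replicate block, 0 with the methods' t-test after adjustment, and 0 when any LP array was left out. With the replicate block, LP against naive T cells kept 3 members higher and 8 lower. It did not keep the calls of Prdx2, Prdx3, Txnrd1 and Gclm. The labels do not say that a replicate number marks a shared mouse or day. The differences between replicates 1 and 2 correlated across genes between the subsets at 0.019 over all genes and at 0.19 over the 10907 genes with a mean signal of at least 1, and 13 of 15 epithelial markers were higher in replicate 2 of both subsets, so these values do not settle whether the numbers pair the arrays. The cause was not tested. The direction turned with quantile normalization for Txn1 (-0.17), Txnip (-0.40), Sod1 (-0.47), Fth1 (-0.60) and Gss (0.34), with the mean of probe sets for Txnip (-0.066), Glrx (-0.53), Nfe2l2 (0.23) and Pgd (-0.45), and without _s_at and _x_at probe sets for Pgd (-0.87). None of these 8 genes had passed in the main fit. Calls were gained as well. Gpx4, Txn2, Txnrd2, Glrx2, Gstp1 and Sod2 passed with the filter, with signal plus 1 and with a variance trend. Of the 15 calls between LP and naive T cells, 9 to 15 were kept by the settings that use all arrays, and Gpx1, Prdx4, Glrx3, Gclc, Gsr and Hmox1 were kept by each of the 8 such settings other than the methods' t-test. Signals under the array median, as for Nqo1 in LP cells and Gpx7, limit the precision of the difference.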
